A study of Mus musculus with 6 samples.

Results

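The genes described here encode the machinery that copies DNA in S phase, a list of 41 mouse genes. Members were found as probe sets annotated to exactly 1 member symbol, and each gene was represented by its brightest probe set over all arrays. By this rule 40 of the 41 genes were measured, among 18193 genes in all, and Chaf1a was not analysed here. RNA came from small cell lung tumours, a neuroendocrine lung cancer, of mice with a mixed C57BL/6;129Sv/J background. Their tumours lack Rb, p53 and p130 (the pocket protein encoded by Rbl2) and were harvested 6 to 7 months after infection with an adenovirus that carries Cre recombinase. No further treatment was given. The sources used here state neither the promoter driving Cre nor the age of the mice at infection. Tumours were dissociated, and a stain for CD24, CD44 and EpCAM served to separate tumour-propagating cells (TPCs) from the other cells, called non-TPCs. Mice 1127, 920 and 0107 each gave 1 sample of each fraction, so both groups share the same 3 animals, and each group holds 3 arrays. The share of cells with the triple deletion in each group was not tested.

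Replication begins when the origin recognition complex, with CDC6 and CDT1, loads the MCM2 to MCM7 ring onto DNA. CDC7 and cyclin E kinases then turn the ring into an active helicase together with CDC45 and the GINS proteins, and polymerases follow with the sliding clamp PCNA. Most of these genes are classical targets of E2F transcription factors, which the pocket proteins RB, p107 and p130 restrain. In these tumours RB and p130 are deleted in the cells of both fractions that carried out recombination. Signals are log2 RMA values, so a difference of 1 is a 2-fold change. Every difference below is the TPC value minus the non-TPC value. Levels of different genes come from different probes and are not compared with each other.

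The label of a neuroendocrine tumour was checked first. All 8 measured neuroendocrine markers had a mean above the median level of all genes (6.91), with list means of 9.82 to 10.54 by array. Cd44, whose protein was stained in the sort, was at 7.23 to 7.76 in TPC arrays and 10.20 to 10.76 in non-TPC arrays. The 12 leukocyte markers had a mean level of 6.74 to 7.36 in TPC arrays and 8.07 to 8.66 in non-TPC arrays, with 10 of 12 lower in TPCs of every mouse. The 9 fibroblast markers stood at 5.92 to 6.06 against 7.73 to 9.74, and the 7 alveolar type 2 markers at 7.22 to 7.53 against 8.80 to 9.73. Markers of other cell types were thus higher in the non-TPC arrays, and their part in the values below was not tested. The non-TPC array of mouse 0107 stood apart from the other 5 in Neurod1, a neural transcription factor gene, at 9.70 against 3.88 to 5.11, and the member median and the 12 members of smallest unadjusted p are given below with and without it. In bulk samples fewer cycling cells and less RNA of these genes per cell cannot be told apart.

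No replication gene passed the adjusted test between TPCs and non-TPCs. With limma, 0 of 40 members passed an adjusted p of 0.05, where 11 of 18193 genes, or 0.0605%, did. The members' adjusted p ranged from 0.81 to 0.998. With the mouse as a replicate block, 0 of 40 passed as well, beside 0.0715% of all genes, and the smallest member adjusted p was 0.521. At an unadjusted p of 0.05, 0 of 40 members passed in either fit, where 6.48% of all genes did in the fit without the block. With the mouse as a random block or with array weights 1 member, Mcm2, had an unadjusted limma p under 0.05 (0.0392 and 0.043). The share of all genes under 0.05 was not counted in those fits. The median member difference was 0.03, beside 0.04 over all genes, and 23 of 40 members had a difference above 0. With array weights, which give arrays that fit the model less well less influence, it was 0.15 beside 0.06 over all genes, with 29 of 40 above 0.

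The data bound the size of these differences as well. The 95% limma interval of 37 members lay within -1 and 1, so a 2-fold difference lay outside it in either direction. The exceptions were Pole (-1.60 to 0.50), Mcm10 (-1.06 to 0.69) and Ung (-0.71 to 1.28). In this fit without the mouse block, the interval reached a median of 0.54 to either side of the difference. With 3 arrays per fraction this fit could thus not resolve smaller differences. With the replicate block the SE was smaller for most members, as for Pole (0.23 beside 0.44). It was slightly larger for Orc6 (0.19 beside 0.18), Mcm8, Rfc3, Rfc5, Rrm1 and Uhrf1. The intervals above and each SE given for a member below are from the fit without the block, so for most members they are wider than with it.

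The direction of the members differed between mice. In mouse 1127, 27 of 40 members were higher in TPCs, with a median of 0.09. In mouse 920 it was 33 of 40, with a median of 0.20, and in mouse 0107 only 8 of 40, with a median of -0.31. Over all genes the medians were 0.07, 0.05 and -0.03, and 59.2%, 57.8% and 46.3% of genes were higher. Over the 9096 genes above the median level, where 39 members lie, the corresponding shares were 50.7%, 58.4% and 49.5%. Within each mouse there is 1 array per fraction, so this difference between mice was not tested.

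**Figure D1:**
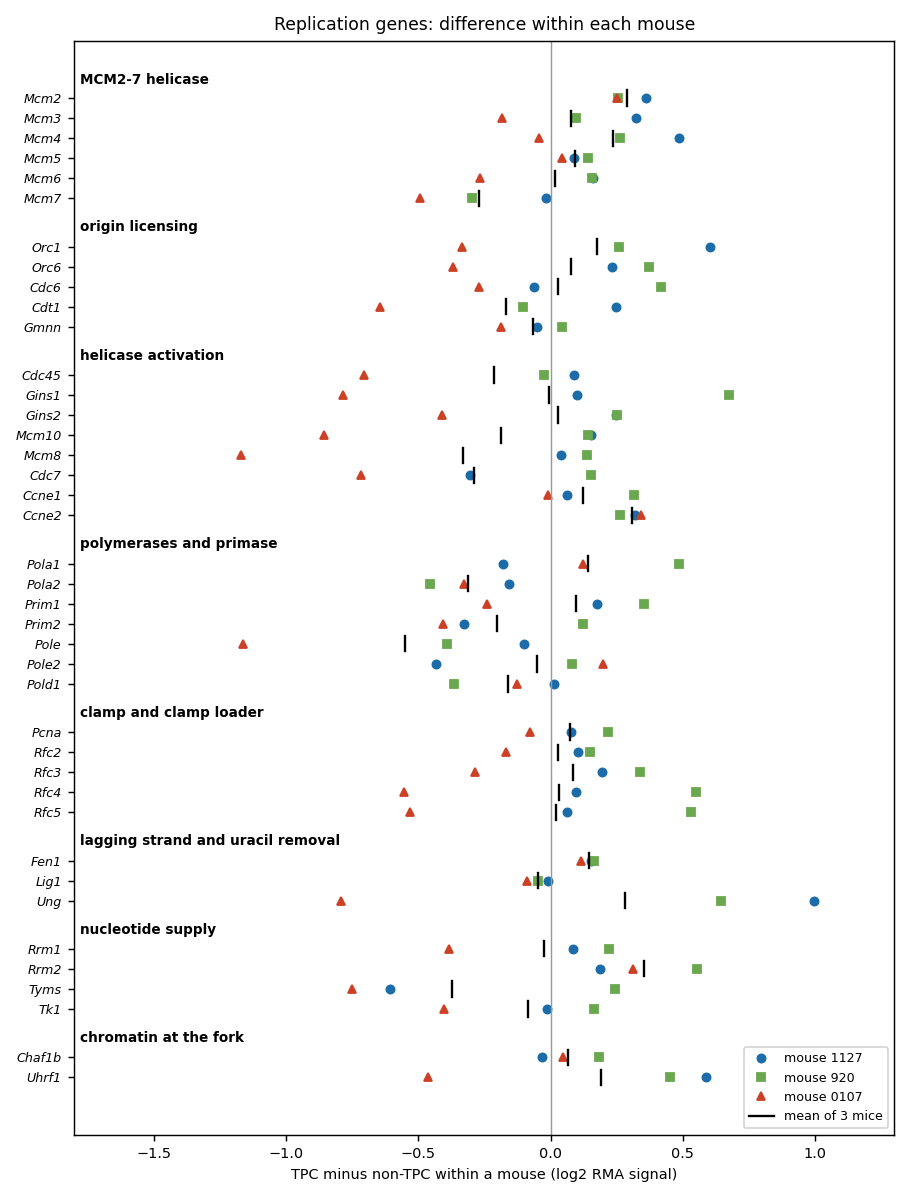
Difference in log2 RMA signal, TPC minus non-TPC, of each of the 40 measured replication genes (rows, grouped by role) within each of 3 mice (symbols), with the mean as a bar. Most points of mouse 0107 lie left of 0 (32 of 40), while 27 and 33 of 40 lie right of it in mice 1127 and 920.

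E2F-type motifs were frequent in promoters of the members. Most of these genes are classical E2F targets, so the share is a description and not an independent result. RefSeq promoter sequences (assembly GRCm38.p6, 250 bases before to 50 after a start site) were matched by symbol for 33 of the 41 listed genes, which gave 39 promoters. They were searched on both strands for E2F-type motifs, which were TTCCCGC together with its relatives TTGGCGC as well as TTCGCGC and also the form TTGCCGC, where overlapping matches count separately. A match was present in 26 of 39 member promoters (66.7%), beside 9.57% of all 32851 promoters and 12.1% of the 21263 promoters of protein-coding genes. By gene, 22 of 33 had a match. The CCAAT box (CCAAT) was present in 20 of 39, or 51.3%, beside 37.4% of all promoters. TTTGAA, the letters of the CHR element of mitotic promoters, was present in 5 of 39, or 12.8%, beside 17.9%. A match describes the letters and not a bound site.

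The stretches below lie before the start site of 6 members from several roles and are shown to let the shared motif be seen, with matches in capitals and all sequences written 5′ to 3′ on the strand of the gene.
Mcm5 (chr8:75109333-75109378, plus strand): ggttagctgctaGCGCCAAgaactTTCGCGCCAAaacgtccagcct
Mcm6 (chr1:128359730-128359826, minus strand): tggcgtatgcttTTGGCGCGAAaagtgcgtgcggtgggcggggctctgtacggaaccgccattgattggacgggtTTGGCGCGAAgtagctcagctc
Orc1 (chr4:108579415-108579445, plus strand): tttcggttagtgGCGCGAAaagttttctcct
Pola1 (chrX:93632258-93632336, minus strand): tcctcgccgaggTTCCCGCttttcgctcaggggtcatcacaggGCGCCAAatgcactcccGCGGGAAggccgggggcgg
Prim1 (chr10:128015188-128015214, plus strand): aggcctgtcttgTTCCCGCcaattctc
Rrm1 (chr7:102441616-102441646, plus strand): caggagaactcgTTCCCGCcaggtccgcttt

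Mcm6 carries 4 matches in this stretch, as a pair of overlapping matches that is repeated, and Mcm5 and Pola1 carry 3 each. Prim1, Rrm1 and Orc1 have 1 each. Members with and without a match were both mostly lower in TPCs of mouse 0107. There the median difference was -0.27 over 21 measured members with a match and -0.40 over 11 with a promoter and no match, given as a description. Of the genes described next, Mcm2 has no match in its window and Fen1 has 1 match in 1 of its 2 promoters.

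The MCM2 to MCM7 genes encode the 6 subunits of the replicative helicase ring. Mcm2 was at 11.11, 10.84 and 10.90 in TPCs of mice 1127, 920 and 0107 and at 10.75, 10.58 and 10.64 in their non-TPCs. All 3 TPC values lay above all 3 non-TPC values, which no other member showed (1 of 40, beside 12.6% of all genes without overlap). The Mcm2 difference was 0.29 (SE 0.13, limma adjusted p = 0.81), the smallest unadjusted p of the list at 0.0697. A second bright Mcm2 probe set differed by 0.53, 0.17 and -0.17 in mice 1127, 920 and 0107, so the direction in mouse 0107 rests on the probe set.

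Mcm7 was the 1 subunit gene with a mean difference below 0. It stood at 12.19, 11.54 and 12.06 in TPCs and at 12.20, 11.84 and 12.55 in non-TPCs of the same mice. The groups overlapped, and the difference was -0.27 (SE 0.25, limma adjusted p = 0.901), with the lower value in TPCs of 3 of 3 mice. Mcm3, Mcm4 and Mcm6 were higher in TPCs of mice 1127 and 920 and lower in those of mouse 0107, by -0.18, -0.04 and -0.27 there. Mcm5 differed by 0.09, 0.14 and 0.04, close to equal in all 3 mice. The second bright probe sets of Mcm4 (-0.05) and Mcm6 (-0.32) gave mean differences of the other sign from the brightest ones (0.24 and 0.02).

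The licensing genes load that ring or hold it back. Orc1 and Orc6 are subunits of the origin recognition complex, Cdc6 and Cdt1 are the loaders and Gmnn encodes geminin, which blocks CDT1. All 5 were lower in TPCs of mouse 0107, by -0.19 for Gmnn to -0.64 for Cdt1, and 3 and 4 of 5 were higher in TPCs of mice 1127 and 920. Cdc6 was at 8.44 ± 0.06 (SD, n = 3) in TPCs and 8.41 ± 0.31 in non-TPCs. Orc1 was likewise at 7.36 ± 0.07 and 7.18 ± 0.53, with its lowest value in the non-TPCs of mouse 1127 (6.68) and its highest in those of mouse 0107 (7.74).

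Of the genes grouped under helicase activation, which include Mcm8, 7 of 8 were higher in TPCs of mice 1127 and 920 and 1 of 8 in those of mouse 0107. Mcm10, which joins the helicase as it fires, was at 7.83, 7.61 and 8.01 in TPCs and at 7.67, 7.47 and 8.86 in non-TPCs of mice 1127, 920 and 0107. Mcm8, a helicase relative that acts in recombination at damaged forks, was at 6.95, 6.84 and 6.53 in TPCs and at 6.91, 6.70 and 7.70 in non-TPCs. For both genes the non-TPC array of mouse 0107 stood above the other 5, while in mice 1127 and 920 the fractions differed by 0.04 to 0.15. Mcm8 had a mean difference of -0.33 (SE 0.28, limma adjusted p = 0.901) and lies near the median level of all genes (6.91). Without mouse 0107 it was 0.09.

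Cdc7, the kinase that phosphorylates the MCM ring, was at 10.78, 11.001 and 10.96 in TPCs and at 11.08, 10.85 and 11.68 in non-TPCs. The groups overlapped, and the difference was -0.29 (SE 0.23, limma adjusted p = 0.896). Cdc45 and Gins1 of the active helicase differed by -0.71 and -0.78 in mouse 0107, and Gins1 by 0.67 in mouse 920, the largest member difference in that mouse. Gins2 differed by 0.25, 0.25 and -0.41. The genes of cyclin E, the activator of CDK2, came out differently from these. Ccne2 was at 11.53, 11.81 and 11.35 in TPCs and at 11.21, 11.54 and 11.01 in non-TPCs. In 3 of 3 mice the TPC value was the higher, by 0.32, 0.26 and 0.34. Its groups overlapped because the mice differed in level, and the mean difference was 0.31 (SE 0.19, limma adjusted p = 0.877, and 0.523 with the replicate block). Ccne1 differed by 0.06, 0.32 and -0.01.

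Polymerase and primase genes, with 2, 4 and 2 of 7 higher in TPCs of mice 1127, 920 and 0107, had no common direction. Pole, the catalytic subunit of leading-strand polymerase epsilon, was at 8.15, 7.41 and 8.25 in TPCs and at 8.25, 7.80 and 9.41 in non-TPCs of mice 1127, 920 and 0107. It was lower in TPCs of 3 of 3 mice and had the largest member difference, -0.55 (SE 0.44, limma adjusted p = 0.898), with overlapping groups. That size rests on the non-TPC array of mouse 0107, as it was -0.09 without that array and -0.24 without both arrays of the mouse. Pola2, the second subunit of polymerase alpha, was at 8.63, 7.67 and 8.21 in TPCs and at 8.79, 8.13 and 8.54 in non-TPCs, a difference of -0.31 (SE 0.29, limma adjusted p = 0.901). It too was lower in TPCs of every mouse while the groups overlapped.

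Pola1, the catalytic subunit beside Pola2, differed by -0.18, 0.48 and 0.12, and Pole2, the accessory subunit of polymerase epsilon, by -0.43, 0.08 and 0.20. Prim2, the large primase subunit, was at 9.22, 9.38 and 9.61 in TPCs and at 9.55, 9.25 and 10.02 in non-TPCs (difference -0.20, SE 0.22, limma adjusted p = 0.913). Its partner Prim1, the catalytic primase subunit, differed by 0.17, 0.35 and -0.24. Pold1, the catalytic subunit of polymerase delta, differed by 0.01, -0.37 and -0.13. Subunits of 1 enzyme thus differed in sign within the same mouse, though none of these differences passed the test.

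The sliding clamp and the listed loader subunits had a common direction within each mouse by their brightest probe sets. Pcna, the clamp, and the loader subunits Rfc2, Rfc3, Rfc4 and Rfc5 were all higher in TPCs of mice 1127 and 920. All were lower in TPCs of mouse 0107. Rfc1, a loader subunit outside the members, differed by -0.16, 0.22 and -0.68 in mice 1127, 920 and 0107. In mouse 0107 further bright probe sets of Rfc2 differed by 0.07 and 0.08, and those of Rfc3 and Rfc4 by -0.05 and -0.65. Rfc4 and Rfc5 were nearly mirror images between mice 920 and 0107, at 0.55 and -0.55 and at 0.53 and -0.53. Their means over the mice were 0.03 and 0.02. The mean level of Pcna was 13.29 ± 0.43 for the TPC arrays and 13.22 ± 0.28 for the non-TPC arrays (SD, n = 3).

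Of the enzymes that finish the lagging strand, the flap nuclease gene Fen1 was at 11.27, 11.16 and 11.32 in TPCs and at 11.11, 10.99 and 11.20 in non-TPCs. The TPC value was the higher in 3 of 3 mice, by 0.15, 0.16 and 0.12, with overlapping groups (difference 0.15, SE 0.13, limma adjusted p = 0.901). The DNA ligase gene Lig1 differed by -0.01, -0.05 and -0.09. Ung, a glycosylase that removes uracil from new DNA, had the widest span between mice, at 0.998, 0.64 and -0.79. Its TPC values were 10.37, 9.67 and 9.78, and its non-TPC values 9.38, 9.03 and 10.57, so the non-TPC array of mouse 0107 was the highest of the 6.

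**Figure D2:**
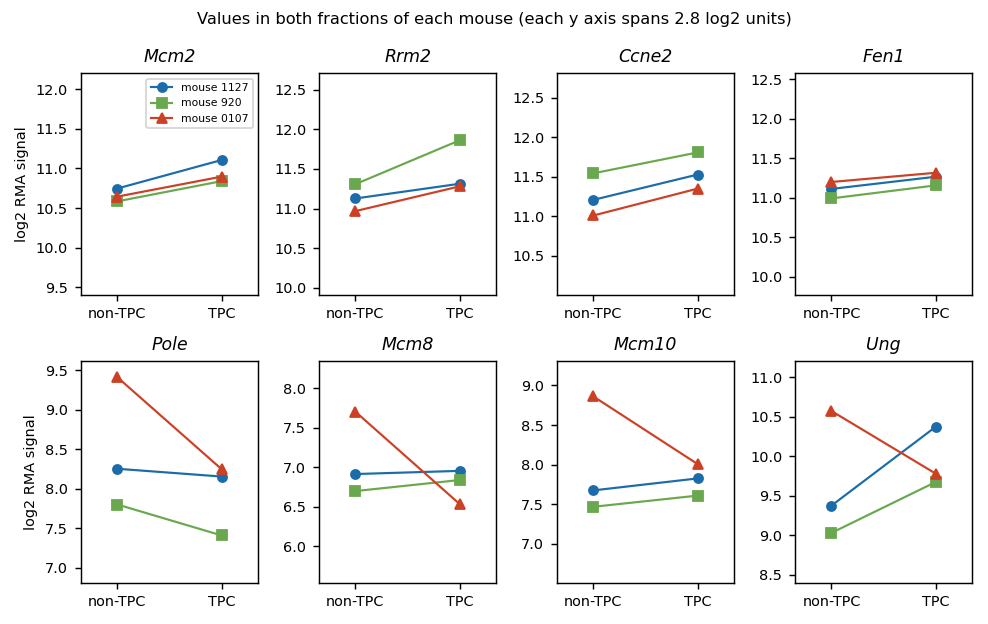
log2 RMA signal of 8 replication genes in the non-TPC and TPC arrays of each mouse (lines join the 2 fractions of a mouse). Mcm2, Rrm2, Ccne2 and Fen1 are higher in TPCs of every mouse by 0.12 to 0.56, while the non-TPC array of mouse 0107 is the highest of 6 for Pole, Mcm8, Mcm10 and Ung.

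Among the genes of nucleotide supply, Rrm2, the regulated subunit of ribonucleotide reductase, was at 11.31, 11.86 and 11.28 in TPCs and at 11.13, 11.31 and 10.97 in non-TPCs. Its TPC value exceeded the non-TPC value in 3 of 3 mice, by 0.19, 0.56 and 0.31. The groups overlapped narrowly, and the difference was 0.35 (SE 0.20, limma adjusted p = 0.872, and 0.521 with the replicate block). Its partner subunit Rrm1 did not share the direction in mouse 0107, at 0.09, 0.22 and -0.38. Tyms, the thymidylate synthase gene, was at 6.51, 6.61 and 6.03 in TPCs and at 7.12, 6.37 and 6.78 in non-TPCs (difference -0.37, SE 0.24, limma adjusted p = 0.879). It is the 1 member below the median level of all genes, and the mean over all its probe sets gave a difference of 0.03. Tk1, which salvages thymidine, differed by -0.01, 0.16 and -0.40.

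Chaf1b, a subunit of the histone chaperone that rebuilds nucleosomes behind the fork, differed by -0.03, 0.18 and 0.05. Uhrf1, which recruits the maintenance DNA methyltransferase to new strands, was at 8.59, 8.48 and 7.80 in TPCs and at 8.003, 8.03 and 8.27 in non-TPCs. It was higher in TPCs of mice 1127 and 920 and lower in those of mouse 0107 by -0.46, with a mean difference of 0.19 (SE 0.23, limma adjusted p = 0.92).

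Counting members by direction gave 5 that were higher in TPCs of every mouse (Mcm2, Mcm5, Ccne2, Fen1 and Rrm2), or 5 of 40 beside 19.7% of all genes. Another 4 were lower in TPCs of every mouse (Mcm7, Pole, Pola2 and Lig1), beside 13.8% of all genes. The most frequent pattern was a higher value in TPCs of mice 1127 and 920 with a lower value in those of mouse 0107. It was shown by 19 of 40 members, or 47.5%, beside 21.1% of all genes and 18.0% of genes above the median level. The opposite pattern was shown by 0 members.

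The levels in single arrays were then compared. Each gene was set to 0 at its own mean over the 6 arrays. The median member then stood at 0.09, -0.04 and -0.05 in TPCs of mice 1127, 920 and 0107, and at 0.00, -0.22 and 0.21 in their non-TPCs. The non-TPC array of mouse 0107 held the highest of the 6 values for 21 of 40 members (52.5%, beside 28.2% of all genes). The non-TPC array of mouse 920 held the lowest for 16 of 40 (40%, beside 18.5%). The member median thus ranged more widely among the non-TPC arrays than among the TPC arrays.

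**Figure D3:**
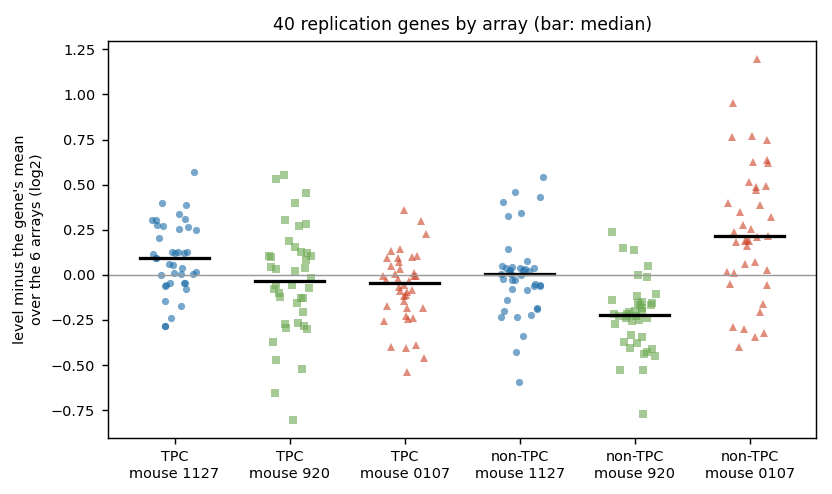
Level of each of the 40 members in the 6 arrays after subtraction of its own mean (log2, points), with the median as a bar. The median of the 3 TPC arrays runs from -0.05 to 0.09 and that of the non-TPC arrays from -0.22 (mouse 920) to 0.21 (mouse 0107).

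Mouse 0107 also stood out in other features. Its non-TPC array had the highest level of Mycn, a MYC family gene, at 13.70. Mycn was at 10.64 in its TPCs and 6.94 to 7.44 in the arrays of the other mice. It also had the highest mean of the 8 endothelial markers, at 6.82 beside 5.22 to 6.09 in the other 5 arrays, and the lowest mean of the leukocyte markers among the non-TPC arrays (8.07). Epcam, the epithelial adhesion gene stained in the sort, was lowest there at 9.98, beside 11.57 in its TPCs and 12.91 to 13.35 in the other mice. The part of these in the replication values was not tested. Leaving out the non-TPC array of mouse 0107 gave a member median of 0.15 with 27 of 40 above 0, and leaving out both arrays of that mouse gave 0.15 with 30 of 40. Leaving out the non-TPC array of mouse 920 gave -0.12 with 12 of 40. In each of these cases 0 members passed the adjusted threshold.

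Single members moved to different degrees when the non-TPC array of mouse 0107 was left out. Mcm2 (0.28), Rrm2 (0.27), Fen1 (0.19), Pola2 (-0.29), Tyms (-0.36) and Uhrf1 (0.28) stayed within 1.5 times of their differences over all arrays. Those of Pole (-0.09), Cdc7 (-0.05), Mcm7 (-0.09), Mcm8 (-0.03) and Ccne2 (0.19) shrank by more than that, and Prim2 came to 0.0023. Of members named for other reasons, Mcm4 came to 0.49, Orc1 to 0.45 and Ung to 0.74. The unadjusted limma p of Orc1 (0.0387) and Ung (0.0254) was then under 0.05. Without both arrays of mouse 0107 the same held for Uhrf1 (difference 0.52) and Ung (0.82), and without its TPC array for Uhrf1 (0.43). The share of all genes under 0.05 was not counted in these fits either.

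Replication genes outside the members were set beside them. Of 43 such genes, 42 were measured, and 0 passed the test in either direction (median difference -0.03). Of them 24, 36 and 7 were higher in TPCs of mice 1127, 920 and 0107, with medians of 0.06, 0.19 and -0.35. As shares these are 57.1%, 85.7% and 16.7%, beside 59.2%, 57.8% and 46.3% of all genes, so in mouse 1127 the share was close to that of all genes. Asf1b, a histone chaperone, differed by 0.41, 0.41 and 0.43 (mean 0.42, limma adjusted p = 0.872). Cdk2, the partner kinase of cyclin E, differed by 0.51, 0.54 and 0.06. Tonsl, a fork repair scaffold, differed by -0.21, -0.69 and -0.20, and Pole3, an accessory subunit of polymerase epsilon, by -0.71, 0.08 and -0.63. These 4 had the smallest unadjusted p of the list.

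As a list, mitosis genes had the mouse pattern with a larger size in mouse 0107. All 24 measured genes were lower in TPCs of mouse 0107 (median -0.85), while 17 and 22 were higher in mice 1127 and 920 (medians 0.18 and 0.24), and 0 passed the test. As shares, 70.8%, 91.7% and 0% were higher in mice 1127, 920 and 0107, beside 59.2%, 57.8% and 46.3% of all genes. The median difference over the mice was -0.11, with 6 of 24 above 0. The genes of smallest unadjusted p did not show the list's pattern, as all were lower in TPCs of mouse 1127. The proliferation marker Mki67 differed by -0.34, 0.19 and -0.90, the topoisomerase gene Top2a by -0.05, -0.08 and -1.03, and the kinetochore motor gene Cenpe by -0.46, 0.13 and -1.27. In mouse 0107 the replication members had a median of -0.31, smaller in size than that of the mitosis genes, and this difference between the lists was not tested.

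**Figure D4:**
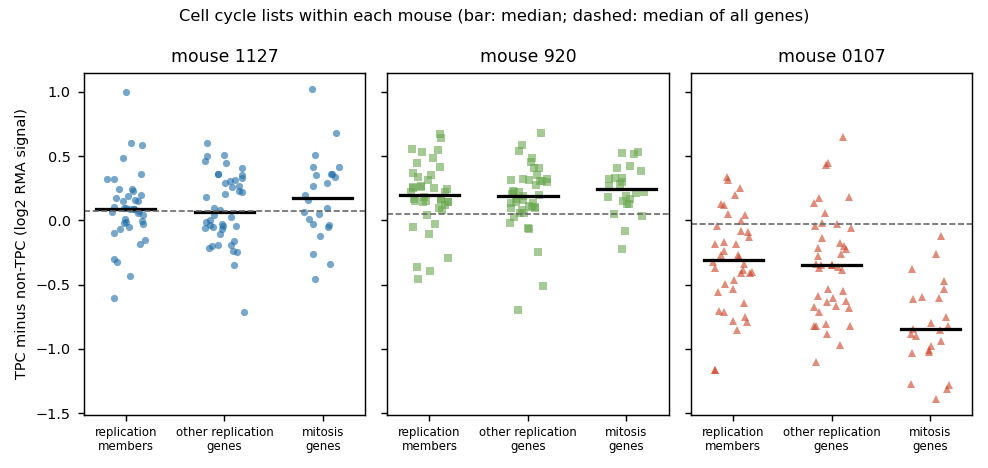
Difference in log2 RMA signal, TPC minus non-TPC, within each mouse (panels) for the 40 replication members, 42 other replication genes and 24 mitosis genes (points), with medians as bars and the median of all genes dashed. In mouse 0107 the 3 medians are -0.31, -0.35 and -0.85, and in the other mice they lie between 0.06 and 0.24.

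Members resembled one another over the arrays to different degrees, given here as a description over 6 arrays of 3 mice that share animals. The correlation of a member with the mean of the others was above 0.5 for 24 of 40, led by Gins2 (r = 0.97), Rfc2 (0.94) and Rfc5 (0.90). It was below 0 for 8, the lowest being Ccne2 (-0.59), Pola1 (-0.48), Pcna (-0.48) and Rrm2 (-0.45). Outside the members, the profile most like their mean was that of Orc2, a further subunit of the origin recognition complex (Pearson r = 0.997, Spearman rho = 1), which was between 9.13 and 9.92. Anapc15, a subunit of the anaphase-promoting complex, and Mms22l, which forms a fork repair complex with TONSL, followed with r of 0.995 and 0.994. Tktl1 (0.994) and Acsm5 (0.993) had signals under 4.45, so their variation lies in dim values.

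Further probe sets of the members gave the same picture by mouse. There were 26 above the median level, for 20 members, and 20 and 19 of them were higher in TPCs of mice 1127 and 920, while 18 were lower in those of mouse 0107. Their mean difference had the sign of the brightest probe set in 20 cases and the other sign in 6. Directions shared by every mouse did not hold in every further probe set. Besides the second Mcm2 probe set, a further bright probe set of Mcm5 differed by -0.32 in mouse 0107, one of Rrm2 by -0.22 in mouse 1127 and one of Fen1 by -0.06 in mouse 920. For Mcm7, lower in TPCs of every mouse by its brightest probe set, further ones differed by 0.16 and 0.07 in mouse 1127 and by 0.0048 in mouse 920. Of the 40 chosen probe sets, 7 carry the suffix that marks probes shared with unrelated sequences (Ccne1, Fen1, Mcm4, Mcm5, Mcm6, Pold1 and Rrm2). Another 5 carry the suffix for probes that match several transcripts (Mcm2, Mcm3, Mcm7, Gins2 and Rfc4). The values of both kinds may include other transcripts.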

How the data were processed

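Per the submitters' processing notes, the authors used RMA, and the deposited values are taken as log2 signals of probe sets because they span 2.70 to 14.81. Neither the log base nor the version of RMA is stated in the sources used here. The number of arrays limits the precision. Of 45101 probe sets, 34945 were paired with 1 symbol, and symbols follow the RefSeq table of GRCm38.p6, matched by Entrez identifier. The comparison used limma 3.58.1 under R 4.3.3 (fraction as the only term, Benjamini-Hochberg over all 18193 genes, threshold 0.05), a procedure tested on simulated data. Titles pair the fractions by mouse. After subtraction of fraction means, arrays from the same mouse had correlations of 0.30, 0.46 and 0.36, against at most -0.08 between mice. The subtraction makes the 3 deviations of a fraction sum to 0. Positive values within mice thus force negative ones between mice on average, and the latter are no separate check. The alternatives were the mouse as a replicate or random block, array weights, other probe set choices, a filter on dim genes, other scaling and leaving out mice or arrays.

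The members and lists were chosen with earlier results of these data known. Values in every array are given for the 12 members of smallest unadjusted p and for those with a difference above 1 in size in a mouse and signs that differ between mice. Up to 4 genes of smallest unadjusted p are named for a described list, and the 5 outside genes most correlated with the members' mean. For the CDK inhibitors every measured gene is named. Ung, Mcm10, the context genes Mycn and Epcam, and members named for a contrast were chosen after their values were seen.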

Additional observations from a re-analysis of the deposited data

How the results depend on the processing

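No alternative brought a member past the adjusted threshold, whether the replicate block, random block, weights, probe sets, filter, scaling or left-out mice and arrays. Their signs, sizes and unadjusted p changed, and the cause was not tested, except that leaving out arrays leaves fewer samples. Members with an unadjusted limma p under 0.05 numbered 0 as reported, 1 with the random block, 1 with array weights and up to 2 with a mouse or array left out. The share of all genes at that p was counted only in the fit as reported. The member median was 0.15 with array weights, and Pole, whose sign held, was -0.19 with them. Pairing by mouse (replicate block) let 13 genes pass, as against 11 without it, and no member call changed. All genes past the threshold numbered 39 with the random block, 64 with array weights, 4 with the mean of all probe sets, 17 with equal medians of bright genes, and 0 to 84 with a mouse or array left out (84 without the non-TPC array of mouse 0107). Members higher in TPCs of every mouse numbered 3 with the most variable probe set, and 5 (without mouse 920) to 24 (without mouse 0107) with a mouse or array left out. In the latter cases only the remaining mice are counted, so the number can only stay or rise. The share of all genes was not counted there.

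Member differences changed sign with array weights for Cdc45 0.024, Gins1 0.33, Mcm10 0.15, Prim2 0.0099, Pcna -0.028, Lig1 0.027, Rrm1 0.083 and Tk1 0.011. They did so with the mean of probe sets for Mcm6 -0.068, Rrm1 0.17 and Tyms 0.0302, and with the most variable probe set for Orc1 -0.043, Prim1 -0.052, Rrm1 0.25 and Uhrf1 -0.052. Quantile normalization gave Mcm6 -0.0075 and Gins1 0.016, and equal medians gave Gins1 0.0084. Leaving out a mouse or an array changed the sign of 29 members, with these lowest and highest differences: Mcm3 -0.044 to 0.21, Mcm5 -0.098 to 0.26, Mcm6 -0.20 to 0.27, Orc1 -0.077 to 0.45, Orc6 -0.067 to 0.30, Cdc6 -0.17 to 0.18, Cdt1 -0.37 to 0.071, Gmnn -0.18 to 0.038, Cdc45 -0.44 to 0.0504, Gins1 -0.34 to 0.39, Gins2 -0.15 to 0.25, Mcm10 -0.45 to 0.24, Mcm8 -0.56 to 0.09, Pola1 -0.088 to 0.30, Prim1 -0.034 to 0.26, Prim2 -0.38 to 0.0023, Pole2 -0.17 to 0.15, Pold1 -0.37 to 0.035, Pcna -0.14 to 0.29, Rfc2 -0.0804 to 0.13, Rfc3 -0.045 to 0.27, Rfc4 -0.23 to 0.35, Rfc5 -0.24 to 0.30, Lig1 -0.14 to 0.041, Ung -0.074 to 0.82, Rrm1 -0.15 to 0.15, Tk1 -0.30 to 0.12, Chaf1b -0.073 to 0.25 and Uhrf1 -0.0055 to 0.52. Where 1 array was left out, the other array of its mouse stayed in, so its level and the fraction are mixed.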

Other observations

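CDK inhibitors, which hold back cyclin-dependent kinases, had 0 of 7 genes past the limma threshold. Their median difference was 0.40, beside 0.04 over all genes, and 0 of 7 had an unadjusted limma p under 0.05 in the fit without the block. With the replicate block 0 of 7 passed the adjusted threshold too, while 3 of 7 had an unadjusted limma p under 0.05, namely Cdkn2c (0.0169), Cdkn2d (0.0211) and Cdkn1b (0.0365). The share of all genes under 0.05 in that fit was not counted, so no excess is read from it. Of the 7, 4 were higher in TPCs of every mouse, beside 19.7% of all genes. Cdkn2c, an inhibitor of the cyclin D kinases, was at 11.08, 12.06 and 11.29 in TPCs and at 10.64, 11.51 and 9.88 in non-TPCs of mice 1127, 920 and 0107. It differed by 0.44, 0.54 and 1.41 (mean 0.80, SE 0.45, limma adjusted p = 0.868). Cdkn1a, an inhibitor induced in cell cycle arrest, differed by 0.33, 0.19 and 1.06, Cdkn2d by 0.39, 0.35 and 0.53, and Cdkn1b by 0.62, 0.29 and 0.29. The other inhibitors had mixed signs. Cdkn2b differed by -0.28, -0.63 and 0.63, Cdkn2a by 0.15, -0.09 and -0.61, and Cdkn1c by 0.13, 0.13 and -0.08. The non-TPC array of mouse 0107 had the lowest of the 6 values of Cdkn2c, Cdkn1a, Cdkn1b, Cdkn2d and Cdkn2b. This was not so for Cdkn2a and Cdkn1c.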
